A study of Mus musculus with 6 samples.

Results

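The genes described here are 10 enzymes and regulators of fatty acid synthesis and desaturation in the liver: Srebf1, Mlxipl, Acly, Acaca, Acacb, Fasn, Me1, Elovl6, Scd1 and Scd2. They were picked by gene name from a table of 34745 mouse genes, and each name matched 1 row. Messenger RNA was sequenced from 6 liver libraries of untreated C57BL/6 mice, 1 library per group. The male groups, aged 9 months, were normal liver of wild-type mice, precancerous liver of Hras12V transgenic mice, and liver tumour (HCC, hepatocellular carcinoma) of Hras12V transgenic mice. The female groups were the same 3 tissues at 15 months, so effects of sex and of age cannot be told apart. Hras12V is an activated form of the RAS oncogene. The sources used here name neither the promoter that drives it nor how many mice went into a library, and leave unsaid whether any mouse gave both tumour and precancerous tissue.

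Total counts were 5996585 to 7347064 in the male libraries and 15047022 to 18434508 in the female ones, so depth differed with sex too. Levels are FPKM, the deposited counts per length of a gene and per size of a library. All 10 genes entered the test, which took the 11435 genes that reached 1 FPKM in 2 or more libraries. The lowest count behind any of their values was 75, for Scd2 in male normal liver. All 8 hepatocyte markers listed were present, with at least 76.4 FPKM in every library. Of these, 4 (Cps1, Tat, Ttr and Apoa2) fell in tumour against normal liver and none rose, against 16.1% and 17.3% of all genes tested. Alb (albumin) stood at 53377 and 54599.6 FPKM in the male and female tumour, against 22399 and 35383 FPKM in normal liver.

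Fatty acid synthesis in hepatocytes turns surplus carbohydrate into fat. Citrate exported from mitochondria is cleaved to acetyl-CoA, acetyl-CoA is carboxylated to malonyl-CoA, and fatty acid synthase joins these units into palmitate with NADPH as the reductant. Palmitate is then elongated and given a double bond before it enters triglycerides and membrane lipids. Insulin drives the pathway through the transcription factor SREBP1 and sugar drives it through ChREBP, and the pathway is known to be raised in many liver tumours.

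The 10 genes did not move as a block. Srebf1, Elovl6 and Scd1 had their highest levels in the 2 precancerous livers. Srebf1, Elovl6 and Mlxipl fell in tumour compared with precancerous liver, where 12.1% of all genes tested fell. None of these 3 calls held with no sex term in the fit, and those of Elovl6 and Mlxipl lay close to the threshold. The desaturase gene Scd2 rose in tumour, by 3.48 on the log2 scale against precancerous liver and by 5.85 against normal liver. Acly, Acaca and Fasn, which make palmitate from citrate, had their highest levels in male precancerous or male tumour tissue, and none of the 3 passed the test in any of 4 comparisons. Of all genes tested 25.9% passed in tumour against precancerous, 0.254% in precancerous against normal and 33.4% in tumour against normal liver. Between males and females 37.3% passed.

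**Figure D1:**
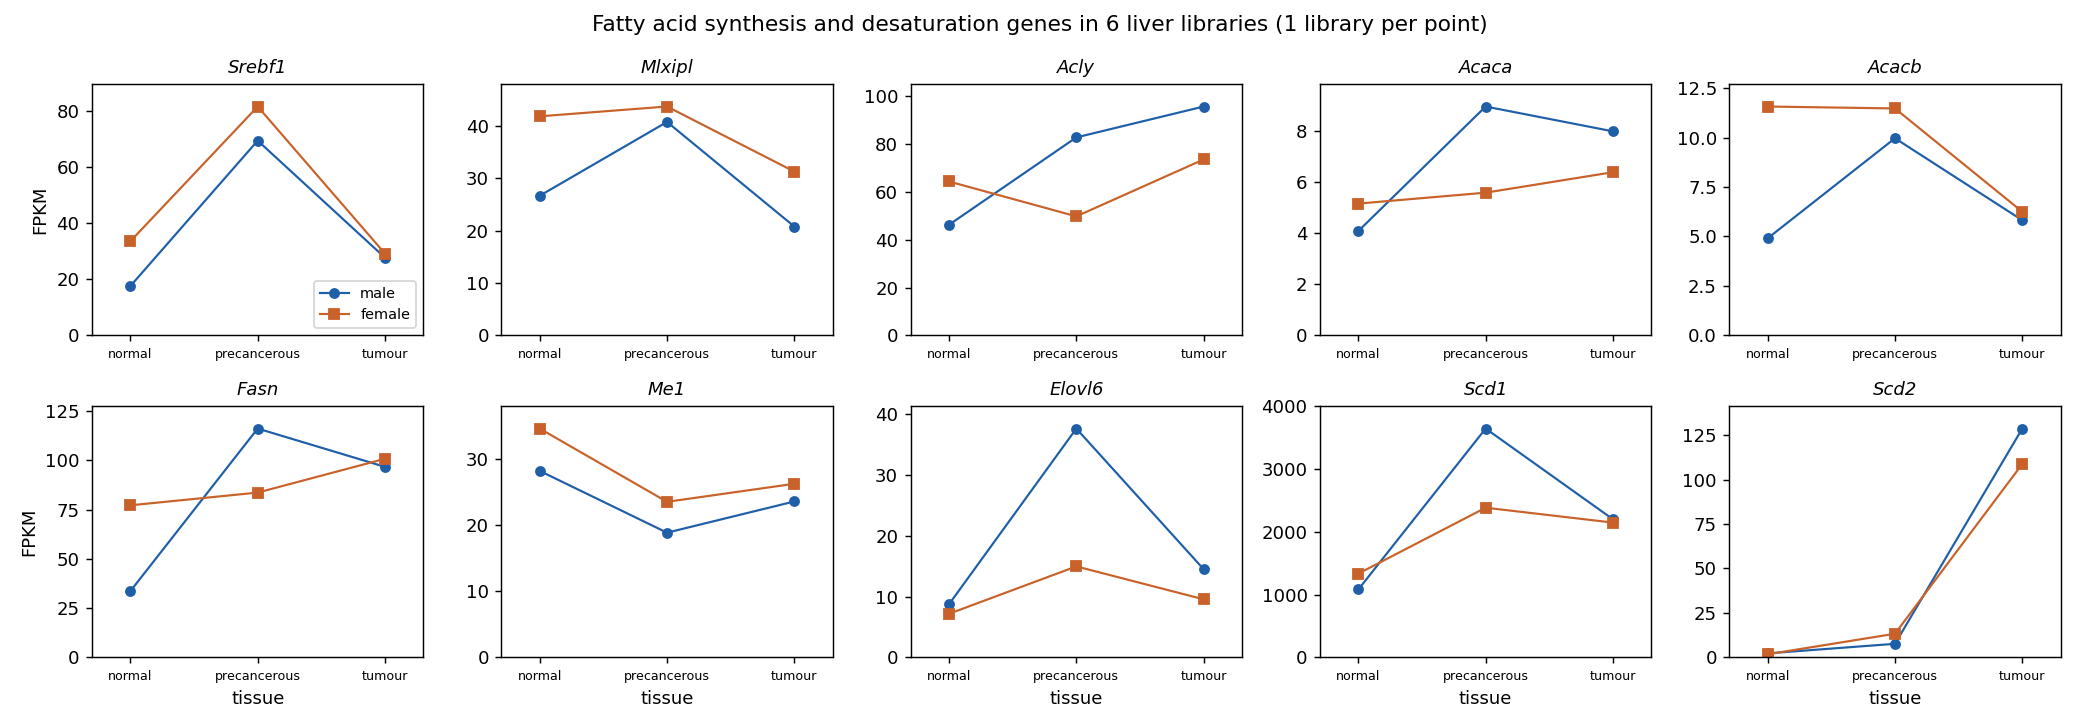
FPKM (vertical axes, linear from 0) of the 10 genes in normal, precancerous and tumour liver (horizontal axes), with 1 point per library, circles for males and squares for females. Srebf1, Elovl6 and Scd1 are highest in the precancerous libraries of both sexes, while Scd2 stands at 129 and 109 FPKM in the male and female tumour and at no more than 13.3 FPKM elsewhere.

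Srebf1 encodes SREBP1, the membrane-bound factor that activates most genes of this pathway when insulin is high. In the GRCm38 build it lies on the minus strand of chromosome 11 from 60199089 to 60222581. Srebf1 stood at 17.6 FPKM in the normal, 69.6 in the precancerous and 27.7 in the tumour library of males, and at 33.6, 81.8 and 29.2 FPKM in those of females. Both precancerous libraries lay above all others, and the tumour values lay inside the range of the normal ones. Srebf1 fell by 1.43 on the log2 scale in tumour against precancerous liver (standard error, SE, 0.25; edgeR quasi-likelihood test with Benjamini-Hochberg adjustment, adjusted p = 0.0171), a 2.70-fold lower level. In precancerous against normal liver the log2 difference was 1.61 (SE 0.26), which missed the threshold of 0.05 (edgeR adjusted p = 0.1003) but passed in 5 of 16 alternatives, among them DESeq2. The fall in tumour lost its call without the male precancerous, female precancerous or female tumour library (edgeR adjusted p = 0.150, 0.0874 and 0.0632), where the lone library left in a tissue is assumed to vary like the other groups. In bulk tissue, fewer cells of a type and less RNA per cell cannot be told apart, for this gene and for all that follow.

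Mlxipl encodes ChREBP, which carries the sugar signal to the same promoters together with its partner Mlx. It lies on the plus strand of chromosome 5 from 135089890 to 135138382. Mlxipl stood at 26.7 FPKM in the normal, 40.8 in the precancerous and 20.8 in the tumour library of males, and at 41.9, 43.8 and 31.3 FPKM in those of females. Each tumour lay below both precancerous livers, while the normal values overlapped with both tissues. Mlxipl fell by 0.77 on the log2 scale in tumour against precancerous liver (SE 0.21, edgeR adjusted p = 0.0498), close to the threshold. The call was lost without any 1 library other than male normal liver: the edgeR adjusted p was 0.307, 0.143, 0.0567, 0.0899 and 0.0986 without the male precancerous, male tumour, female normal, female precancerous and female tumour library, and without the male precancerous one the difference was -0.51. Of the exonic bases of Mlxipl 4.2% lie under an exon of a gene on the opposite strand, the highest share among the 10 genes, and the sources used here do not say whether counting used strand.

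The promoter windows of both factors are shown because both genes fell between precancerous liver and tumour. RefSeq start sites on build GRCm38.p6 gave windows of 300 bases (250 before to 50 after the start) for 8 of the 10 genes, 12 windows in all; Scd1 and Scd2 had no entry. Capitals mark matches on either strand to the SREBP element form TCANNCCAC (which includes TCACNCCAC), to CCAAT (the NF-Y box), to GGGCGG (the Sp1 box) and to the E-box CACGTG. Of 3 windows for Srebf1 and 2 for Mlxipl, the one with both a CCAAT and a GGGCGG match is printed.
Srebf1, chr11:60210422-60210721, minus strand: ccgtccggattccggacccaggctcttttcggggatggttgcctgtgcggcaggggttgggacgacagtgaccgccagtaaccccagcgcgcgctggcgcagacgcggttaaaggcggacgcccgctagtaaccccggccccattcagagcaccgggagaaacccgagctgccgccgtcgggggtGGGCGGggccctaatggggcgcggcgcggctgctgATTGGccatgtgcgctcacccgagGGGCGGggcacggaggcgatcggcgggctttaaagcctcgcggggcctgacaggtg
Mlxipl, chr5:135089640-135089939, plus strand: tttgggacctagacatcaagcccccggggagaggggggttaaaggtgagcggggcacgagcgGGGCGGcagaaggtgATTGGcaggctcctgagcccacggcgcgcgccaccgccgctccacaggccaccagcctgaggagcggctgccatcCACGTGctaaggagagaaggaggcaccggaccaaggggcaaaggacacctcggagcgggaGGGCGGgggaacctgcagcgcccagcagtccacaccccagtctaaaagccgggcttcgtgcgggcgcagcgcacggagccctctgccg
Positions count from the start site to the leftmost base of a match. The Srebf1 window has CCAAT at -30 and GGGCGG at -65 and -6. The Mlxipl window has CCAAT at -173, GGGCGG at -188 and -38 and the E-box at -98. Over all 32851 windows of that length, CCAAT was found in 37.4%, GGGCGG in 35.7%, CACGTG in 7.15%, TCANNCCAC in 4.18% and TCACNCCAC in 1.24%. Among the 12 windows of these genes 7 held CCAAT, 5 held GGGCGG, 3 held TCANNCCAC, and 1 each held CACGTG and TCACNCCAC. The TCACNCCAC match lies at -136 in the Mlxipl window that is not printed. These matches are letters in a window, not bound sites.

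Acly, ATP citrate lyase, makes the cytosolic acetyl-CoA on which synthesis starts. It lies on the minus strand of chromosome 11 from 100476353 to 100528000. Acly stood at 46.2 FPKM in the normal, 82.7 in the precancerous and 95.6 in the tumour library of males, and at 64.3, 49.7 and 73.5 FPKM in those of females. Both tumours lay above both normal livers, while precancerous liver lay above normal liver in males and below it in females. The log2 difference was 0.55 for tumour against normal (SE 0.32, edgeR adjusted p = 0.246) and 0.22 for precancerous against normal (SE 0.32, edgeR adjusted p = 0.796). Within males the ratio of precancerous to normal was 1.79 (95% exact counting interval 1.70 to 1.88), and within females it was 0.773 (0.749 to 0.799). Such intervals, here and below, cover counting error only, since each group is 1 library.

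Acaca and Acacb encode the 2 acetyl-CoA carboxylases. The Acaca enzyme makes malonyl-CoA for synthesis in the cytosol, and the Acacb enzyme sits at the mitochondrial surface, where its malonyl-CoA restrains fatty acid import for oxidation. Acaca (plus strand of chromosome 11, from 84129672 to 84401651) stood at 4.08 FPKM in the normal, 8.95 in the precancerous and 7.98 in the tumour library of males, and at 5.15, 5.58 and 6.38 FPKM in those of females. All precancerous and tumour values of Acaca lay above both normal values. The log2 difference was 0.58 for tumour against normal (SE 0.27, edgeR adjusted p = 0.158). Acacb (plus strand of chromosome 5, from 114146535 to 114250761) stood at 4.91 FPKM in the normal, 9.96 in the precancerous and 5.82 in the tumour library of males, and at 11.6, 11.5 and 6.25 FPKM in those of females. Both tumours lay below both precancerous livers, and the male normal library was lowest of all. Acacb differed by -0.86 on the log2 scale between tumour and precancerous liver without passing (SE 0.30, edgeR adjusted p = 0.0974). It passed in 4 of 16 alternatives: DESeq2 (adjusted p = 0.0499), only the libraries compared (edgeR adjusted p = 0.0135), and without the male normal or female normal library (edgeR adjusted p = 0.0152 and 0.0126).

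Because FPKM is per length, the carboxylases can be set against each other within a library. Acacb made up 54.6%, 52.7% and 42.2% of their summed FPKM in normal, precancerous and tumour liver of males, and 69.2%, 67.3% and 49.5% in those of females. The share was lower in tumour than in the other 2 tissues of the same sex, and lower in the male than in the female library of each tissue. None of 9583 different 50-base words of the Acacb transcripts occurs in the Acaca transcripts.

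**Figure D2:**
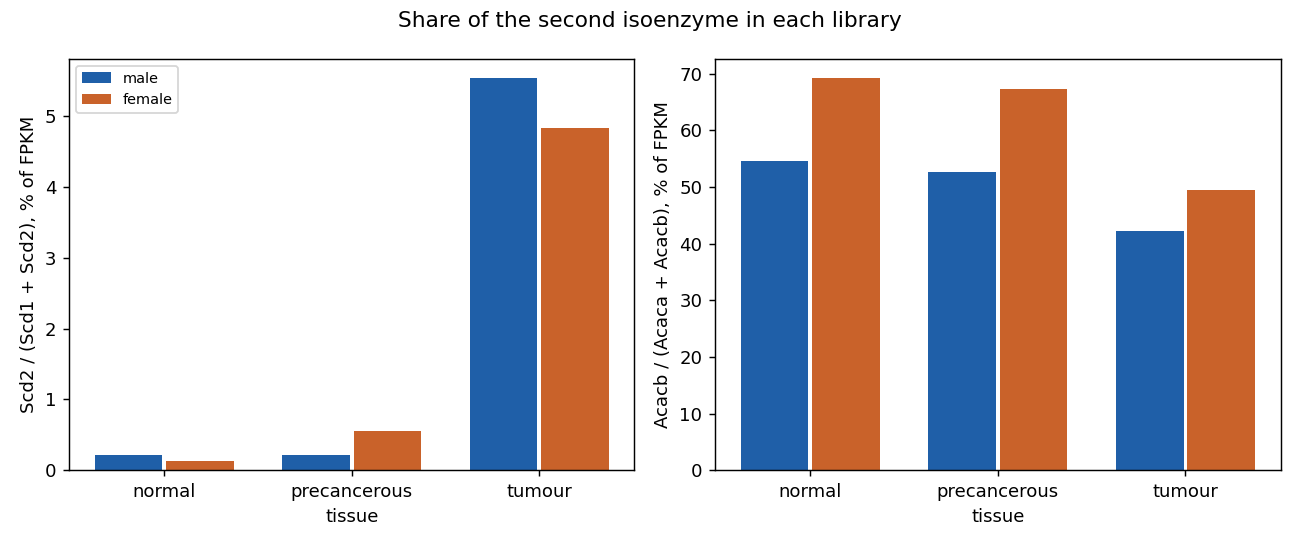
Share of Scd2 in the summed FPKM of Scd1 and Scd2 (left) and of Acacb in that of Acaca and Acacb (right), in percent from 0, for each tissue, with male bars left of female bars and 1 library per bar. The Scd2 share is 5.54% and 4.83% in the male and female tumour and at most 0.557% elsewhere, and the Acacb share is lowest in tumour in each sex.

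Me1, the cytosolic malic enzyme, supplies NADPH. It lies on the minus strand of chromosome 9 from 86581371 to 86695953. Me1 stood at 28.2 FPKM in the normal, 18.9 in the precancerous and 23.6 in the tumour library of males, and at 34.6, 23.6 and 26.3 FPKM in those of females. Normal liver was highest and precancerous liver lowest in each sex. The log2 difference between precancerous and normal liver was -0.57 (SE 0.13, edgeR adjusted p = 0.164). The ratio of these tissues was 0.669 in males (0.606 to 0.737) and 0.680 in females (0.643 to 0.719), with overlapping intervals.

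Fasn, fatty acid synthase, carries out all steps from malonyl-CoA to palmitate. It lies on the minus strand of chromosome 11 from 120805846 to 120824547. Fasn stood at 33.6 FPKM in the normal, 116 in the precancerous and 96.7 in the tumour library of males, and at 77.2, 83.6 and 101 FPKM in those of females. The male normal library lay below the 5 others, and all precancerous and tumour values lay above both normal ones. The log2 difference was 0.85 for tumour against normal (SE 0.42, edgeR adjusted p = 0.183) and 0.92 for precancerous against normal (SE 0.43, edgeR adjusted p = 0.384). The ratio of precancerous to normal liver was 3.45 in males (3.31 to 3.60) and 1.08 in females (1.06 to 1.11). Between tumour and normal liver the log2 difference of Fasn was 0.22 without the male normal library and 1.64 without the female normal library, where it passed (edgeR adjusted p = 0.0385).

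Elovl6, the elongase that takes palmitate to stearate, lies on the plus strand of chromosome 3 from 129532355 to 129638495. It stood at 8.74 FPKM in the normal, 37.6 in the precancerous and 14.5 in the tumour library of males, and at 7.17, 15.0 and 9.55 FPKM in those of females. Precancerous liver was highest and normal liver lowest in each sex, and the male value exceeded the female one in each tissue. Elovl6 fell by 1.07 on the log2 scale in tumour against precancerous liver (SE 0.28, edgeR adjusted p = 0.0483). In precancerous against normal liver the difference was 1.60 without passing (SE 0.29, edgeR adjusted p = 0.122). The call was lost without the male precancerous, male tumour, female precancerous or female tumour library (edgeR adjusted p = 0.228, 0.132, 0.0512 and 0.101), and without the male precancerous one the difference was -0.60. The windows of the elongase, which fell, and of the synthase, which did not pass, are shown to set beside those of the 2 factors.
Elovl6, chr3:129532136-129532435, plus strand: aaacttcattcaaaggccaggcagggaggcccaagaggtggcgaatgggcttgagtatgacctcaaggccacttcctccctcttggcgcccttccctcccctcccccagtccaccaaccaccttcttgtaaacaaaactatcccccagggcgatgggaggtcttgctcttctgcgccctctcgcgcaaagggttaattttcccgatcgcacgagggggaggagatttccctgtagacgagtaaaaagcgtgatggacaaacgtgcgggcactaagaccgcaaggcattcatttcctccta
Fasn, chr11:120824498-120824797, minus strand: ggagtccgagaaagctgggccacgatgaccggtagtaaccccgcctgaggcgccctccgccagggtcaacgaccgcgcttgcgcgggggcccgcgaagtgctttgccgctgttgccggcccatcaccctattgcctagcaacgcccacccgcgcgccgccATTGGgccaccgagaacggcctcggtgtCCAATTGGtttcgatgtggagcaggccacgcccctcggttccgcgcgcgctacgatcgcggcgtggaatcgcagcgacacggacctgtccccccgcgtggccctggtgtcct
None of the motifs searched was found in the Elovl6 window, which says only that these letters are not in it. The Fasn window held CCAAT, on either strand, at -90, -62 and -59, and the last pair overlap.

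Scd1 and Scd2 encode stearoyl-CoA desaturases, which turn stearate and palmitate into the monounsaturated oleate and palmitoleate. Scd1 is the main desaturase of adult mouse liver, while Scd2 is known from brain and from liver around birth. Both lie on chromosome 19, Scd1 on the minus strand from 44394451 to 44407709 and Scd2 on the plus strand from 44293676 to 44306864. Scd1 had the highest FPKM of the 10 genes in every library and stood at 1079.8 FPKM in the normal, 3637 in the precancerous and 2195 in the tumour library of males, and at 1332, 2379 and 2142 FPKM in those of females. Precancerous liver was highest and normal liver lowest in each sex. By FPKM, Scd1 ranked between 13 and 50 among all 34745 genes. In male precancerous liver it took 1.76% of all counts (95% Wilson interval 1.75% to 1.77%), against 0.522% in male normal liver (0.516% to 0.528%). The log2 difference of Scd1 was 1.30 for precancerous against normal (SE 0.30, edgeR adjusted p = 0.168), -0.49 for tumour against precancerous (SE 0.29, edgeR adjusted p = 0.269) and 0.81 for tumour against normal (SE 0.29, edgeR adjusted p = 0.0903), where DESeq2 alone among the alternatives called it (adjusted p = 0.0192).

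Scd2 stood at 2.29 FPKM in the normal, 7.66 in the precancerous and 129 in the tumour library of males, and at 1.77, 13.3 and 109 FPKM in those of females. The counts behind these levels were 75, 288 and 5155 in the male libraries and 170, 1094 and 10933 in the female ones. Normal liver was lowest and tumour highest, and no value of one tissue overlapped with another. Scd2 rose 11.2-fold in tumour against precancerous liver (log2 fold change 3.48, SE 0.33, edgeR adjusted p = 0.00422) and 57.7-fold against normal liver (5.85, SE 0.37, edgeR adjusted p = 0.00124). In precancerous against normal liver the log2 difference was 2.37, which missed the threshold (SE 0.32, edgeR adjusted p = 0.0731). The ratio of tumour to normal was 56.1 in males (44.7 to 71.4) and 61.6 in females (52.9 to 72.1). Scd2 passed the test in each of 16 alternatives run for tumour against precancerous and in each of 16 for tumour against normal liver. In precancerous against normal liver it passed in 5 of 16, among them DESeq2.

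Scd1 remained the more abundant desaturase transcript in all 6 libraries. Scd2 made up 0.212%, 0.210% and 5.54% of their summed FPKM in normal, precancerous and tumour liver of males, and 0.132%, 0.557% and 4.83% in those of females. The FPKM of Scd1 was 17.1 times that of Scd2 in the male tumour, against 471 times in male normal liver. It was 19.7 times that of Scd2 in the female tumour, against 754 times in female normal liver. Of the 50-base words in the Scd2 transcripts 2.66% also occur in Scd1 transcripts. Within males the ratio of precancerous to normal liver was 3.34 for Scd2 (2.58 to 4.37) and 3.37 for Scd1 (3.33 to 3.41). Whether reads of Scd1 were counted as Scd2 was not tested. Of the near copies, Scd3 stood at 0.769 FPKM in the normal, 2.47 in the precancerous and 1.65 in the tumour library of males, and at 0.163, 0.345 and 0.907 FPKM in those of females, and Scd4 reached 0.135 FPKM at most.

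**Figure D3:**
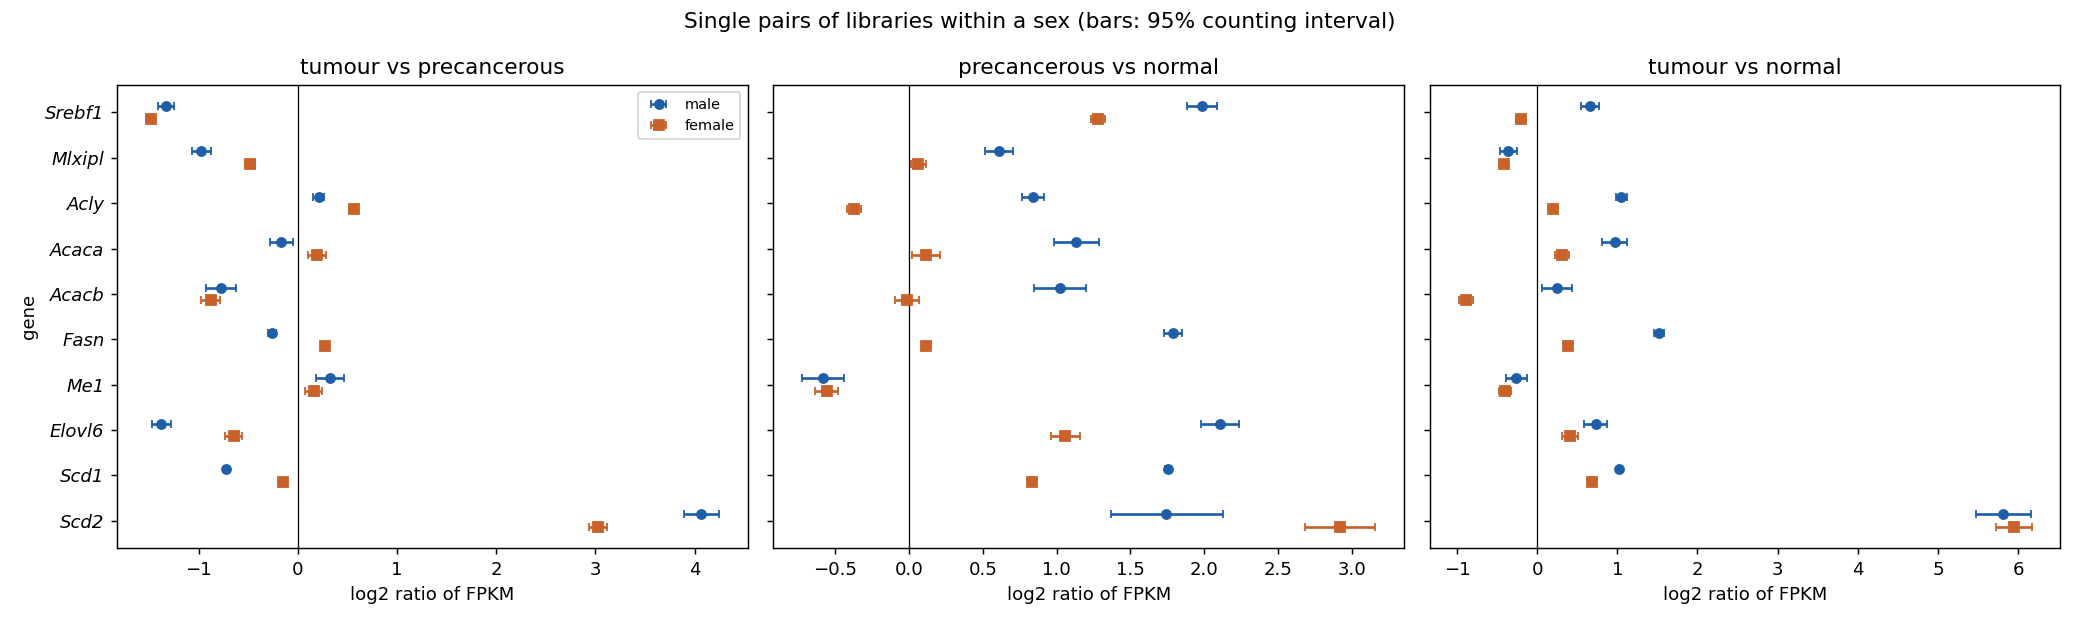
Log2 ratio of FPKM (horizontal axes) for each of the 10 genes within males (circles) and within females (squares), for tumour against precancerous, precancerous against normal and tumour against normal liver, with bars for the 95% counting interval of a pair of libraries and a line at no difference. Scd2 lies far to the right in both tumour panels, and for precancerous against normal liver the male point lies to the right of the female one for all genes but Me1 and Scd2.

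Tumour against precancerous liver asks how the carcinoma differs from transgenic liver tissue labelled precancerous. Of the 10 genes, 1 rose (Scd2) and 3 fell (Srebf1, Elovl6 and Mlxipl). With no sex term in the fit Scd2 still passed, and Srebf1, Elovl6 and Mlxipl did not (edgeR adjusted p = 0.150, 0.276 and 0.405). Elovl6 also missed the threshold with limma, and Mlxipl with only the libraries compared. Over all 11435 genes tested, 13.8% rose and 12.1% fell, 25.9% in either direction. The median log2 difference was -0.29 for the 10 genes and 0.026 for all genes. On log2(FPKM + 1), Scd2 was at least 2-fold higher and Srebf1 at least 2-fold lower within both sexes, against 4.34% and 2.90% of all genes tested. Acaca and Fasn were lower in males and higher in females beyond counting error, and 2.12% of all genes had opposite directions in this sense.

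Precancerous against normal liver asks what transgenic liver shows beside wild-type liver. None of the 10 genes passed the edgeR test, against 0.254% of all genes (0.105% higher and 0.149% lower). At an unadjusted p under 0.05 there were 5 of 10, namely Srebf1, Elovl6, Scd1, Scd2 and Me1, against 1807 of 11435 genes. DESeq2 called these 5 genes, with Me1 lower and the others higher, against 3.22% of all genes, and limma called none. The median log2 difference was 0.77 for the 10 genes and -0.014 for all. On log2(FPKM + 1), a difference of 2-fold upward was reached by 5 genes within males and by 2 within females, against 1.92% and 1.23% of all genes. Srebf1 and Scd2 reached it within both, against 0.463% of all genes, and none of the 10 was 2-fold lower within both, against 0.516%. The median log2 FPKM ratio of the 10 genes was 1.44 in males and 0.12 in females, a difference between the sexes that was not tested. Acly was higher in males and lower in females beyond counting error, and 2.90% of all genes had opposite directions.

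Tumour against normal liver spans both steps and shares its libraries with the other tissue comparisons. Scd2 rose and none of the other 9 genes passed, against 33.4% of all genes (17.3% higher and 16.1% lower). The median log2 difference of the 10 genes was 0.54, against 0.00054 for all. Scd2 was at least 2-fold higher on log2(FPKM + 1) within both sexes, against 5.33% of all genes, and none of the 10 was 2-fold lower within both, against 3.95%. Within males Fasn, Scd1 and Acly reached 2-fold as well, 4 genes against 8.38% of all genes, and within females Scd2 alone did, against 7.42%. Without the female normal library Acaca and Fasn also passed (edgeR adjusted p = 0.0445 and 0.0385), and without the male normal library Acacb was called lower (edgeR adjusted p = 0.0262). Srebf1 and Acacb were higher in males and lower in females beyond counting error, and 3.17% of all genes had opposite directions.

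Males aged 9 months were set against females aged 15 months over the 3 tissues. None of the 10 genes passed the edgeR test, against 37.3% of all genes (19.1% higher and 18.2% lower in males). At an unadjusted p under 0.05 there were 3, namely Elovl6, Me1 and Mlxipl, against 5685 of all genes. DESeq2 called these 3, against 30.6% of all genes, a share near that of the 10, and limma called none. The log2 difference was 0.65 for Elovl6 (SE 0.23, edgeR adjusted p = 0.0811), -0.35 for Me1 (SE 0.10, edgeR adjusted p = 0.0527) and -0.54 for Mlxipl (SE 0.17, edgeR adjusted p = 0.0576). None of the 10 was 2-fold higher or lower in all 3 tissues on log2(FPKM + 1), against 4.59% and 0.332% of all genes. In normal liver alone 8 of the 10 genes were lower in the male than in the female library beyond counting error, against 26.1% of all genes. Counting intervals are narrower at higher counts, and those genes were not matched to the 10 for count. Acacb and Fasn were at least 2-fold lower there, against 3.27% of all genes, with male to female ratios of 0.424 (0.380 to 0.472) and 0.436 (0.419 to 0.453). In precancerous liver Elovl6 was at least 2-fold higher in the male library, at a ratio of 2.51 (2.38 to 2.65), against 6.88% of all genes. The male normal library was the lowest of all 6 for Srebf1, Acly, Acaca, Acacb, Fasn and Scd1, so their ratios to normal liver within males rest on it. The share of all genes that were lowest there was not counted.

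Of 11 listed genes of SREBP processing and LXR input, 3 rose and 1 fell in tumour against precancerous liver, against 13.8% and 12.1% of all genes, with a median of 0.29. Srebf2, the sister factor that governs cholesterol synthesis, stood at 11.03 FPKM in the normal, 6.17 in the precancerous and 14.8 in the tumour library of males, and at 21.6, 10.7 and 21.9 FPKM in those of females. It was lowest in precancerous liver in each sex, and it rose by 1.12 on the log2 scale, as for all differences of partner genes below, in tumour against precancerous liver (SE 0.14, edgeR adjusted p = 0.00697). Scap, the escort of both factors, rose by 0.68 (SE 0.13, edgeR adjusted p = 0.0218). Usf1, an E-box factor of the Fasn promoter, rose by 0.59 (edgeR adjusted p = 0.0221) and Usf2 fell by 0.80 (edgeR adjusted p = 0.0111). The retention factors Insig1 and Insig2 stood at 0.37 and 1.03 without passing (edgeR adjusted p = 0.137 and 0.0571), as did the oxysterol receptor gene Nr1h3 at -0.29 (edgeR adjusted p = 0.141). In precancerous against normal liver none of the list passed, with a median of -0.061. In tumour against normal liver 1 of the list rose and 2 fell, against 17.3% and 16.1% of all genes, with a median of 0.013. Nr1h3 was among the 2 that fell there, at -0.43 (SE 0.12, edgeR adjusted p = 0.0498), close to the threshold.

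**Figure D4:**
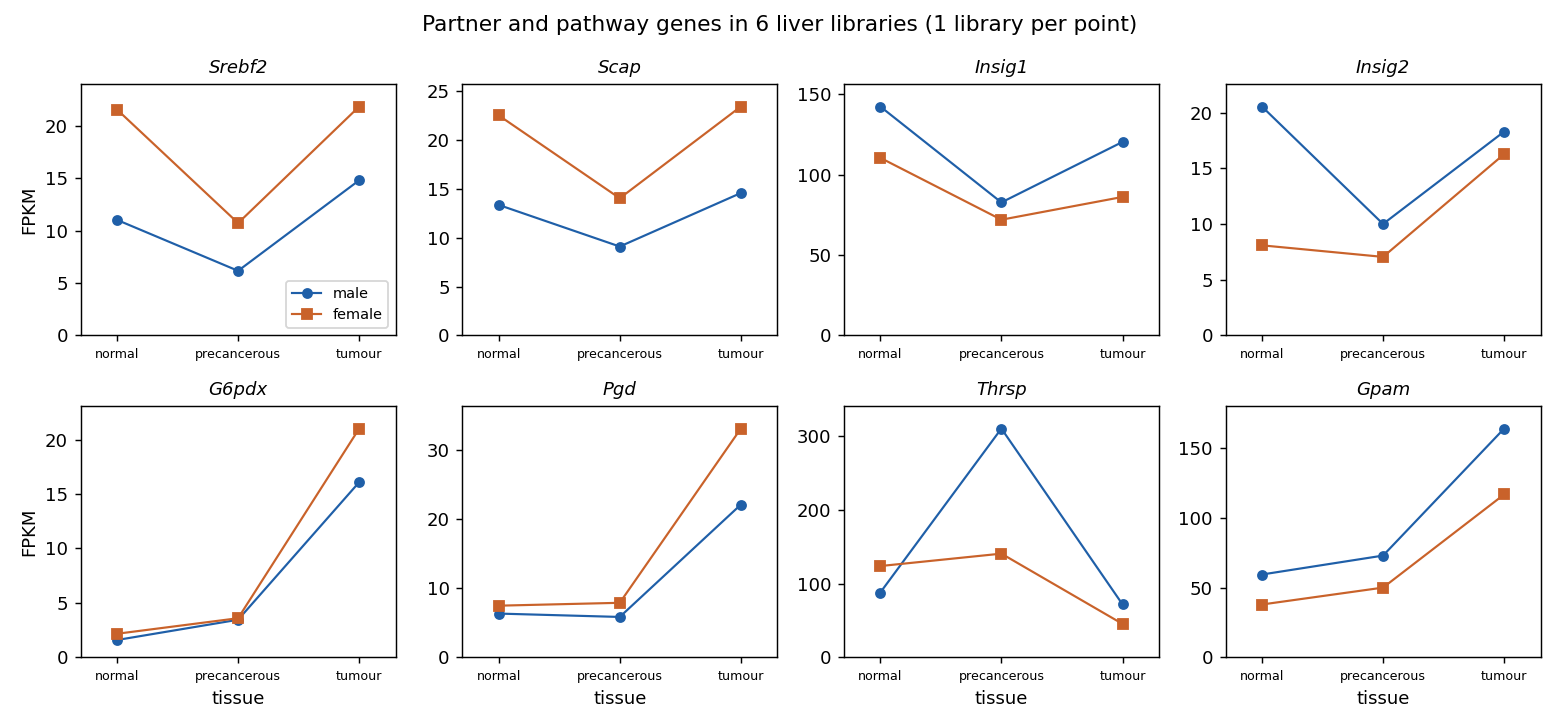
FPKM (vertical axes, linear from 0) of 8 genes around the pathway in normal, precancerous and tumour liver, 1 point per library, circles for males and squares for females. Srebf2, Scap, Insig1 and Insig2 are lowest in precancerous liver of each sex, G6pdx, Pgd and Gpam are highest in tumour, and Thrsp stands at 309.6 FPKM in male precancerous liver.

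Among 12 ChREBP partners and sugar-responsive genes, 3 fell and none rose in tumour against precancerous liver, where 12.1% of all genes fell, with a median of -0.54. Thrsp, a lipogenic protein gene that follows insulin and thyroid hormone, fell by 1.94 (SE 0.42, edgeR adjusted p = 0.0277). It stood at 87.8 FPKM in the normal, 309.6 in the precancerous and 71.8 in the tumour library of males, and at 124, 140.4 and 45.4 FPKM in those of females, so tumour was lowest in each sex. G6pc, glucose-6-phosphatase, fell by 2.91 in tumour against normal liver (edgeR adjusted p = 0.0233). Pklr, the liver pyruvate kinase, stood at 28.8 FPKM in the normal, 67.2 in the precancerous and 43.0 in the tumour library of males, and at 53.9, 56.8 and 40.9 FPKM in those of females. Pklr and Mlx, the partner of ChREBP, did not pass in any of the 3 tissue comparisons. Of 14 tested genes of insulin and AMPK input, 4 rose and 3 fell between tumour and normal liver, against 17.3% and 16.1% of all genes, with a median of 0.024. Trib3, a stress-induced pseudokinase, rose by 2.75 (edgeR adjusted p = 0.00147), and the insulin receptor gene Insr rose by 0.75 (edgeR adjusted p = 0.0203). Prkab1, a regulatory subunit of AMPK, rose by 1.49 (edgeR adjusted p = 0.00481).

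NADPH for synthesis can also come from the pentose phosphate pathway. Of 7 tested NADPH genes, 3 rose and none fell in tumour against precancerous liver, where 13.8% of all genes rose, with a median of 0.44. G6pdx, the entry enzyme of that pathway, stood at 1.60 FPKM in the normal, 3.46 in the precancerous and 16.1 in the tumour library of males, and at 2.17, 3.60 and 21.0 FPKM in those of females. Both tumours lay above all other libraries, and G6pdx rose by 2.37 against precancerous liver (SE 0.15, edgeR adjusted p = 0.00276). Pgd, a later enzyme of the same pathway, rose by 1.96 (SE 0.14, edgeR adjusted p = 0.00288). Nnt, the mitochondrial transhydrogenase, fell by 1.21 in tumour against normal liver (edgeR adjusted p = 0.00577). Its difference was already -1.23 in precancerous against normal liver, without passing (edgeR adjusted p = 0.0698). Between tumour and precancerous liver it was 0.019 (edgeR adjusted p = 0.943).

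Among genes of citrate supply and malonyl-CoA removal none rose: of 9 tested, 3 fell in tumour against precancerous and 6 against normal liver, compared with 12.1% and 16.1% of all genes; against normal liver the median was -0.91. Mlycd, which breaks malonyl-CoA down, fell by 0.93 and 1.26 in these comparisons (edgeR adjusted p = 0.00630 and 0.00213). Pdk2, a kinase that holds back pyruvate dehydrogenase, fell by 1.28 in tumour against normal liver (edgeR adjusted p = 0.00520), and citrate synthase, Cs, fell by 0.91 (edgeR adjusted p = 0.00645). The citrate carrier gene Slc25a1 and the acetate-activating Acss2 did not pass in tumour against normal liver (edgeR adjusted p = 0.953 and 0.0684). Of 14 tested genes of other elongases and desaturases, 4 rose and 1 fell in that comparison, against 17.3% and 16.1% of all genes, with a median of 0.54. Fads2, a desaturase of polyunsaturated fatty acids, rose by 1.11 (SE 0.25, edgeR adjusted p = 0.0265), while Fads1 and Elovl5 stood at 0.25 and 0.70 without passing (edgeR adjusted p = 0.533 and 0.133). Elovl7, an elongase of very long chains, stood at 5.18 and 4.50 FPKM in the male and female tumour, against 0.123 FPKM in male normal liver and a listed 0 in female normal liver (edgeR adjusted p = 0.00668). The normal values rest on 4 and 0 counts, so no fold is given. Elovl7, among the 4 that rose, reached 1 FPKM in the tumours only, so it entered the test through the tissue where it was high. Elovl3, an elongase known for its male bias in mouse liver, stood at 357 FPKM in the normal, 6.02 in the precancerous and 0.182 in the tumour library of males, and at 2.39, 0.178 and 0 FPKM in those of females. It fell in precancerous against normal liver (edgeR adjusted p = 0.0311) and in tumour against normal liver (edgeR adjusted p = 0.00121); the tumour values rest on 2 counts in the male and 0 in the female library, so no fold is given.

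In lipid assembly, 5 of 12 tested genes rose and 3 fell between tumour and normal liver, against 17.3% and 16.1% of all genes, with a median of -0.023. Gpam, the first acyltransferase of glycerolipid synthesis, rose by 1.51 (SE 0.15, edgeR adjusted p = 0.00286). Acsl4, which activates polyunsaturated fatty acids, rose by 1.94 (edgeR adjusted p = 0.00147). Pnpla3, a known SREBP1 target, stood at 0.0719 FPKM in the normal, 9.60 in the precancerous and 21.9 in the tumour library of males, and at 1.55, 7.93 and 22.0 FPKM in those of females. Pnpla3 rose in tumour against normal liver (edgeR adjusted p = 0.00935), but its male normal value rests on 2 counts, so no fold is given. Lpin1, a phosphatidate phosphatase, fell by 2.09 (edgeR adjusted p = 0.0112). Of 8 tested genes of mitochondrial fatty acid synthesis, a separate pathway that makes lipoate precursors, none rose and 5 fell in that comparison, where 16.1% of all genes fell, with a median of -0.58. Acsf3, which makes mitochondrial malonyl-CoA, fell by 1.22 (edgeR adjusted p = 0.00415).

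Genes nearest in pattern were found by the root mean square difference of log2(FPKM + 1), each gene centred on its own mean over the 6 libraries, among 6260 candidate genes. For Srebf1 they were Gm9847 (0.29) and Tef (0.32). For Fasn they were Rab20 (0.15), Gys2 (0.16) and Elovl2 (0.18), and for Scd1 Spry4 (0.17), Marveld1 (0.23) and Hbb-bs (0.23). For Elovl6 they were Asic5 (0.25), Hbb-bs (0.30) and Fgl1 (0.30), and for Me1 Lamtor1 (0.064), Bag3 (0.10) and Sart1 (0.10). For Scd2 they were 2310034O05Rik (0.24), Pnpla5 (0.33) and Gldn (0.34). Hbb-bs is a haemoglobin gene of red blood cells with a near-identical copy, so its level is uncertain. With 6 libraries, such likeness describes these samples.

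Markers of other cell types moved with some of these levels, and their part in the results was not tested. The summed FPKM of 9 stellate cell and matrix markers was 14.2 and 22.5 in male and female normal liver, 14.7 and 19.1 in precancerous liver and 54.6 and 62.6 in tumour. In tumour against precancerous liver 6 of them rose and 1 fell, against 13.8% and 12.1% of all genes tested. Of the 6, Col1a2 reached 1 FPKM in the tumours only, so it entered the test through them. The sum of 7 cholangiocyte markers was 121 and 139 FPKM in the male and female tumour and at most 14.7 FPKM elsewhere. Spp1 alone gave 115 and 129 FPKM in the tumours. Of the 3 markers tested, Sox9 and Spp1 rose in tumour against precancerous liver, where 13.8% of all genes rose. Against normal liver Sox9, Spp1 and Epcam rose, where 17.3% of all genes did. Epcam reached 1 FPKM in the tumours only, so it entered the test through the tissue where it was high. The defining marker Krt19 reached 1.07 FPKM and Krt7 0.208 FPKM at most. The stellate and cholangiocyte sums were high where Scd2 was. Kupffer cell and macrophage markers summed to 247 and 350.5 FPKM in male and female normal liver, 359 and 502 in precancerous liver and 166 and 253 in tumour. Of these markers 8 of 10 fell in tumour against precancerous liver, against 12.1% of all genes tested. The Kupffer cell and macrophage sum was highest in each sex in precancerous liver, where Srebf1 was highest, and so was the sinusoidal endothelial sum given below. The summed FPKM of 7 proliferation markers was 12.96 and 15.4 in the male and female tumour and at most 3.95 elsewhere. Of the 8 hepatocyte markers 3 fell in tumour against precancerous and 4 against normal liver, compared with 12.1% and 16.1% of all genes tested. Their medians were -0.55 and -0.72, while their sum, most of it Alb, was 36423 to 67042 FPKM and highest in tumour. The summed FPKM of 7 sinusoidal endothelial markers was 51.7 and 64.7 in male and female normal liver, 61.6 and 71.0 in precancerous liver and 43.9 and 46.6 in tumour. That of 6 T and NK cell markers was 1.41 to 4.21 and that of 5 B cell markers 1.72 to 14.2. Of 7 adipocyte markers, the 5 defining ones (Adipoq, Plin1, Lep, Cfd and Retn) had at most 2 counts in any library, and the sum of all 7 was 26.4 to 654 FPKM, nearly all of it Car3.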

How the data were processed

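Messenger RNA of 6 mouse liver libraries was analysed, made with a stranded kit per the labels' protocols. The authors deposited whole-number counts per gene, not normalized, and FPKM values. The submitters' processing notes list TopHat2 2.0.9, Cuffdiff, GRCm38 and mm10 without saying what each was for; counter and strand setting are not given in the sources used here. Where male normal liver and another library both had at least 10 counts, the gene length implied by count, FPKM and library total was the same in both (ratio 0.99992 to 1.00008).

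Counts of the 11435 genes were fitted with edgeR 4.0.16 in R 4.3.3 (TMM factors, additive terms for tissue and sex, 2 residual degrees of freedom, two-sided quasi-likelihood test), with Benjamini-Hochberg adjustment over all of them and a call at an adjusted p under 0.05. The SE is the size of the log2 fold change over the square root of F. The residual holds the sex-by-tissue difference, and p-values measure only the spread between these libraries. Pairs within a sex have no test. A count of 3, taken as the floor, equals 0.163 to 0.5003 CPM.

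The 10 genes and all lists were chosen with earlier results of these data known. A rule named further genes: up to 3 tested genes per pathway list with the largest mean difference in log2(FPKM + 1) between tumour and normal liver, direct partners of the 10 genes, and up to 3 nearest patterns of 6 of them; some genes that the rule picks are not reported here. Positions are those of the deposited table; strands, exon overlaps and transcript words come from GENCODE vM21 (GRCm38). Alternatives were RLE, upper-quartile or no composition factors, DESeq2 1.42.0, limma 3.58.1 on log2(FPKM + 1) or log2(FPKM + 0.1), other filters, other terms and leaving out each library.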

Additional observations from a re-analysis of the deposited data

Results flagged for a closer look

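In 5 instances a gene was higher in one sex and lower in the other under the same comparison, with both counting intervals away from no difference. Each sex has 1 pair of libraries, so the difference between the sexes was not tested. Over all genes tested, 3.17%, 2.90% and 2.12% did the same for tumour against normal, precancerous against normal and tumour against precancerous liver. For tumour against normal liver the log2 FPKM ratio of Srebf1 was 0.66 in males and -0.20 in females, and that of Acacb was 0.25 in males and -0.89 in females. For precancerous against normal liver the ratio of Acly was 0.84 in males and -0.37 in females. For tumour against precancerous liver the ratio of Acaca was -0.17 in males and 0.19 in females, and that of Fasn was -0.26 in males and 0.27 in females. Depth and age differ between the sexes as well, and their part in these values cannot be told apart from that of sex.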

How the results depend on the processing

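No paired analysis was possible because the labels give no replicate numbers that could pair libraries; the sex term in the fit already compares tissues within a sex. Between tumour and precancerous liver 4 of the 10 genes passed; the count was 1 with no sex term and 1 to 5 when single libraries were left out. Between precancerous and normal liver 0 passed, against 5 with DESeq2, 2 with no filter on low values, 2 with only the libraries compared, and 0 to 2 when single libraries were left out. Between tumour and normal liver 1 passed, against 2 with DESeq2 (3248 of all genes) and 1 to 3 when single libraries were left out. Between males and females 0 passed, against 1 with upper-quartile factors and 3 with DESeq2. Over all genes, 2965 passed between tumour and precancerous liver, against 113 with no sex term and 458, 506 and 1731 without the male precancerous, female precancerous and female tumour library. The counts were 29, against 0 to 368 under the alternatives, between precancerous and normal liver, 3819, against 690 to 4455, between tumour and normal liver, and 4270, against 764 to 4710, between males and females. With library totals alone the last split was 2731 higher and 1602 lower genes, against 2187 and 2083.

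The log2 differences that changed sign all belonged to genes that had not passed in the comparison concerned. Ranges are over single libraries left out. For tumour against precancerous liver, Acly ran over -0.050 to 0.76, Acaca -0.38 to 0.33 and Fasn -0.58 to 0.54, and limma with pseudocounts of 1 and 0.1 gave 0.0087 and 0.013 for Acaca and 0.0023 and 0.0025 for Fasn. For precancerous against normal liver, Acly ran over -0.28 to 0.76 and Acacb -0.036 to 1.05. For tumour against normal liver, Srebf1 ran over -0.20 to 0.59 and Acacb -0.90 to 0.20. For males against females, Acly ran over -0.16 to 0.47, Acaca -0.12 to 0.42, Fasn -0.74 to 0.12, Scd1 -0.24 to 0.24 and Scd2 -0.37 to 0.20. The cause was not tested. Elovl6 missed the threshold between tumour and precancerous liver with limma too (adjusted p = 0.0643 and 0.0616 at those pseudocounts), and Mlxipl did with only the libraries compared (edgeR adjusted p = 0.0571). The male libraries are the shallower ones, which widens their counting intervals.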
